A study of Mus musculus with 15 samples.

Results

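Costimulatory receptors and ligands deliver the second signal that T cells need beside their antigen receptor. The group described here holds 10 such genes, which were listed by symbol. The list was made with earlier results of these data known. The receptors on T cells were Cd28, Icos, Cd27, Tnfrsf4 (OX40), Tnfrsf9 (4-1BB) and Tnfrsf18 (GITR), and the molecules of antigen-presenting cells were Cd80, Cd86, Cd40 and Tnfsf4 (OX40 ligand). All 10 were among the 46679 genes measured, and 8 of them were among the 17481 genes that passed the filter on low counts. Cd80 and Tnfsf4 did not pass it and have no test.

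The 15 RNA samples came from C57BL/6 mice: 3 from naïve brain and 3 each from end-stage tumors of the lines CT2A, GL261, 005 and Mut3. CT2A (p53 wild type) and GL261 (K-ras and p53 mutant) came from tumors induced with methylcholanthrene, 005 carries activated H-ras and AKT on a p53+/- background, and Mut3 has lost NF1 and p53. Per the study's methods, cells of all 4 lines were transduced with GFP and firefly luciferase, both of which are foreign to the host. The methods state that the transduced lines served for all work in mice. Mice received 100000 cells of CT2A, GL261 or 005, or 500000 Mut3 cells, at an age of 6 to 8 weeks. Naïve brain is the tissue of mice without a tumor, and each tumor group is a single cell line. The study classed GL261 and 005 as immunologically active and CT2A and Mut3 as inert, from RNA sequencing data of these tumors. The comparisons below ask how the costimulatory genes differ between tumors and naïve brain, between the tumors and between these classes.

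CD28 is bound by CD80 and CD86, which are displayed by dendritic cells, macrophages and B cells, and its relative ICOS is bound by ICOS ligand. The receptors of the TNF receptor family act through TRAF adaptors on NF-κB and sustain T cells that have already met antigen. OX40, 4-1BB and GITR are induced when T cells are activated and are high on regulatory T cells, whereas CD28 and CD27 are already present on naïve T cells. CD40 is displayed by antigen-presenting cells and licenses them when it meets CD40 ligand on helper T cells.

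Total estimated counts were lowest in naïve brain (3105119 to 5161132) and lay between 5380395 and 13130158 in the tumors. A floor of 3 counts was chosen, which stood for 0.228 to 0.966 CPM (counts divided by library size). The CPM values of genes below are also TMM-normalized, so this floor applies to them only roughly. It covers counting error only, and values under it rest on fewer counts. Summed TPM (reads scaled to gene length and to a common total) of 10 T cell markers was 4.93 to 12.2 in naïve brain. It reached 23.6 to 41.8 in the CT2A tumors, 68.9 to 139 in those of GL261, 65.5 to 403 in those of 005 and 6.47 to 17.2 in those of Mut3. Within 005, replicate 2 had the highest Ptprc, the gene of the leukocyte antigen CD45 (20.2 TPM against 3.27 and 6.09), and replicate 3 had neuron markers at a summed 357 TPM against 32.8 and 10.5. In bulk tissue, fewer cells of a type and less RNA per cell cannot be told apart.

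The members differed in level. On the TPM scale, which allows genes to be compared, Tnfrsf18, Tnfrsf4, Tnfrsf9, Cd86 and Cd40 were the most abundant in 005, with means ± SD of 11.3 ± 7.02, 4.22 ± 2.41, 4.38 ± 2.71, 3.18 ± 1.68 and 2.56 ± 1.88 TPM (n = 3 for each). Cd27 (0.893 ± 0.651), Icos (0.403 ± 0.269), Cd28 (0.239 ± 0.224), Cd80 (0.131 ± 0.0824) and Tnfsf4 (0.0109 ± 0.0188) lay below 1 TPM there. In naïve brain Cd86 (1.17 ± 0.944) and Tnfrsf18 (1.09 ± 1.25) had the highest means, and every other member was below 1 TPM. The SDs in 005 were large against the means, and the order among its 5 most abundant members is not resolved.

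**Figure D1:**
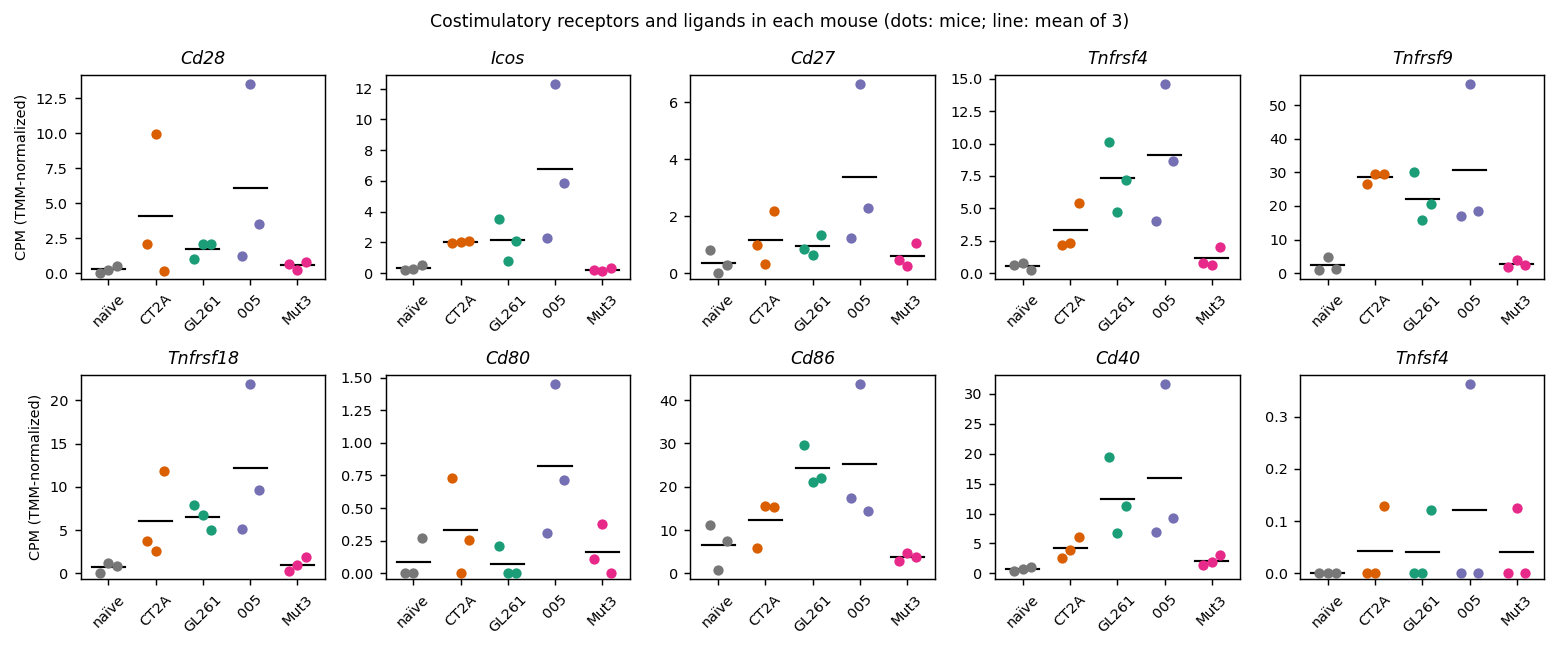
CPM (TMM-normalized, y axis, linear, a separate scale for each gene) of the 10 members in each mouse of the 5 groups (x axis); dots are mice and the line is the mean of 3. The dots of 005 spread most, with 1 mouse (replicate 2) highest in all 10 genes, and the Tnfrsf9 dots of CT2A lie close together.

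Among the genes of the TNF receptor family, Tnfrsf9 rose in 3 of the 4 lines. Its levels were 0.816, 4.73 and 1.35 CPM in naïve brain and 1.68, 3.77 and 2.37 CPM in Mut3. CT2A had 26.6, 29.5 and 29.5 CPM, GL261 had 30.1, 15.7 and 20.6 CPM, and 005 had 17.1, 56.4 and 18.4 CPM. The 9 samples of CT2A, GL261 and 005 all lay above the 6 samples of naïve brain and Mut3, and those of naïve brain and Mut3 overlapped. Against naïve brain, Tnfrsf9 was 12.5-fold higher in CT2A (log2 fold change 3.64 ± 0.64 SE, adjusted p = 0.00117), 9.64-fold in GL261 (3.27 ± 0.63, adjusted p = 0.00293) and 13.4-fold in 005 (3.74 ± 0.64, adjusted p = 0.00234). In Mut3 the log2 fold change was 0.19 ± 0.63, with a 95% interval from −1.15 to 1.53 (adjusted p = 0.831). The 3 higher calls held without any single sample.

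Tnfrsf4, the gene of OX40, rose in the same 3 lines, with the lowest mean of the 3 in CT2A. It was at 0.612, 0.747 and 0.270 CPM in naïve brain, 2.20, 2.33 and 5.43 CPM in CT2A, 10.2, 4.69 and 7.16 CPM in GL261, 4.02, 14.6 and 8.62 CPM in 005, and 0.783, 0.629 and 2.02 CPM in Mut3. Each CT2A, GL261 and 005 sample exceeded each naïve brain sample, and Mut3 overlapped naïve brain. The log2 fold changes were 2.56 ± 0.72 in CT2A (adjusted p = 0.0124), 3.69 ± 0.72 for GL261 (adjusted p = 0.00321) and 4.00 ± 0.72 for 005 (0.0031), against 1.06 ± 0.74 in Mut3 (adjusted p = 0.265). Without CT2A replicate 3 the CT2A difference was no longer called (adjusted p = 0.0602).

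Tnfrsf18, the gene of GITR, lies 9552 bases downstream of Tnfrsf4 on chromosome 4 (GRCm38, Tnfrsf4 at 156013843 to 156016612 and Tnfrsf18 at 156026164 to 156028895, both on the plus strand). Its exons overlap those of the antisense gene Gm16008, and the sources used here do not say whether reads were counted by strand, so its counts may include reads of that gene. Its levels were 0, 1.25 and 0.811 CPM in naïve brain, 3.79, 2.64 and 11.9 CPM in CT2A, 7.88, 6.79 and 4.97 CPM in GL261, 5.15, 21.9 and 9.68 CPM in 005, and 0.224, 1.01 and 1.85 CPM in Mut3. Again CT2A, GL261 and 005 lay above naïve brain without overlap. The log2 fold changes were 3.19 ± 0.96 (adjusted p = 0.0168), 3.28 ± 0.96 (adjusted p = 0.0258) and 4.18 ± 0.97 (adjusted p = 0.0115) in these lines and 0.65 ± 0.99 in Mut3 (adjusted p = 0.623). The call in CT2A was lost without naïve brain replicate 1 (adjusted p = 0.0547) or CT2A replicate 3 (0.09), and that in GL261 without naïve brain replicates 1 (0.0778) or 3 (0.0605) or GL261 replicate 1 (0.0613).

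The regions around the start sites of these receptors are shown because 3 members on chromosome 4 rose together. RefSeq promoter windows (GRCm38.p6, 250 bases before to 50 bases after the start, each on the strand of its gene) were found for 5 members, Cd80, Cd27, Tnfrsf4, Tnfrsf9 and Tnfrsf18, with 6 windows in all, and capitals mark matches to the NF-κB consensus or to the AP-1 motif TGANTCA on either strand. The 3 windows shown are on the plus strand. The Tnfrsf4 window (chr4:156013445-156013744) ends before the GENCODE gene begins, whereas the start in the Tnfrsf18 window (chr4:156026072-156026371) and in the second Tnfrsf9 window (chr4:150927749-150928048, within the gene at 150914562 to 150946102) falls in an annotated exon.
Tnfrsf9, second start: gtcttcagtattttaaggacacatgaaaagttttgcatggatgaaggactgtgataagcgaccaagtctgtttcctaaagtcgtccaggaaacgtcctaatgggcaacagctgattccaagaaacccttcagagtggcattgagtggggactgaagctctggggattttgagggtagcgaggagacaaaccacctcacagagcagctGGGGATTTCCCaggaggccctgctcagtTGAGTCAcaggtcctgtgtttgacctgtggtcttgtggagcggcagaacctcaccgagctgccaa
Tnfrsf4: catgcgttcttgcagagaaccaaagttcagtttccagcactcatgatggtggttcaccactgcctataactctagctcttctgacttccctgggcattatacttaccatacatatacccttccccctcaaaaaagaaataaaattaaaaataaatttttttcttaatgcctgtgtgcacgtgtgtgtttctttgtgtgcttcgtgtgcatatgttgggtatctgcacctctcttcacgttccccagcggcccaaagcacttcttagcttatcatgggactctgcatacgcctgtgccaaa
Tnfrsf18: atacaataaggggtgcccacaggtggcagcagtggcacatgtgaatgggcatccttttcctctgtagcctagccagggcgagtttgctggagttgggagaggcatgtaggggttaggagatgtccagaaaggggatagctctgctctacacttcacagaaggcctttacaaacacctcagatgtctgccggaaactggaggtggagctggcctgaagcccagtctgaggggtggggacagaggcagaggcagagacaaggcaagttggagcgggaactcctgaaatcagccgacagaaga
The Tnfrsf9 window held overlapping NF-κB matches that began 43 and 42 bases before the start, and an AP-1 match that began 15 bases before it. No match to either motif was found in these letters of Tnfrsf4 and Tnfrsf18, in the first Tnfrsf9 window or in Cd27, and the Cd80 window held the AP-1 match TGATTCA, 42 bases before the start. Thus 1 of the 6 windows held the NF-κB consensus and 2 held AP-1, compared with 4.51% and 7.81% of all 32851 RefSeq windows of that length. A match describes the letters and is not evidence of binding.

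Cd27, which is carried by resting T cells and binds CD70, gave no call in edgeR. It was at 0.816, 0 and 0.270 CPM in naïve brain, 0.977, 0.311 and 2.20 CPM in CT2A, 0.829, 0.647 and 1.33 CPM in GL261, 1.24, 6.64 and 2.28 CPM in 005, and 0.448, 0.252 and 1.06 CPM in Mut3. The 005 samples lay above naïve brain without overlap (log2 fold change 3.09 ± 1.02, adjusted p = 0.0612), and this difference was called by DESeq2 (3.15, adjusted p = 0.0275) and, in edgeR, without 005 replicate 3 (3.24, adjusted p = 0.0316). DESeq2 also called Cd27 between 005 and Mut3 and among the 5 groups. All other groups overlapped naïve brain.

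Cd28 and Icos, the receptors of the CD28 family, were sparsely counted. Icos had estimated counts of 0.962 to 1.97 in naïve brain and 0.972 to 3.91 in Mut3, whereas the counts in CT2A, GL261 and 005 ran from 4.91 to 102. In CPM, Icos was 0.204, 0.249 and 0.541 in naïve brain, 1.95, 2.02 and 2.07 in CT2A, 3.52, 0.808 and 2.06 in GL261, 2.27, 12.3 and 5.84 in 005, and 0.224, 0.126 and 0.352 in Mut3. The 3 higher groups lay above naïve brain without overlap, and the CT2A mice were nearly equal. The log2 fold changes were 2.58 ± 0.82 in CT2A (adjusted p = 0.0215), 2.65 ± 0.82 for GL261 (adjusted p = 0.0329) and 4.33 ± 0.81 for 005 (0.00382), and −0.40 ± 0.92 in Mut3 (adjusted p = 0.756). The CT2A call was lost without naïve brain replicate 1 (adjusted p = 0.0781) or CT2A replicate 3 (0.0505). The GL261 call was lost without naïve brain replicates 1 (0.108) or 2 (0.0767) or GL261 replicates 1 (0.109) or 3 (0.073).

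Cd28 was at 0, 0.249 and 0.541 CPM in naïve brain, 2.08, 9.94 and 0.129 CPM in CT2A, 1.04, 2.10 and 2.06 CPM in GL261, 1.24, 13.5 and 3.49 CPM in 005, and 0.671, 0.252 and 0.792 CPM in Mut3. The lowest CT2A sample fell within naïve brain, while GL261 and 005 did not overlap it. Since naïve brain held 3 counts in all, the ratios of summed counts per depth have wide counting intervals, namely 15.4 (95% interval 5.09 to 76.3) in CT2A, 7.42 (2.33 to 37.8) in GL261, 22.7 (7.64 to 111) in 005 and 2.53 (0.732 to 13.5) in Mut3. Over mice, Cd28 was called higher in CT2A (adjusted p = 0.0341) and 005 (0.0446) and not in GL261 (0.157) or Mut3 (0.543). The CT2A call was lost without naïve brain replicates 1, 2 or 3 or CT2A replicate 2 (adjusted p = 0.109, 0.0772, 0.0507 and 0.222). The 005 call was lost without any of 10 samples (adjusted p from 0.0505 to 0.217): the 3 of naïve brain, CT2A replicate 1, GL261 replicates 2 and 3, 005 replicate 2 and the 3 of Mut3.

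Of the molecules displayed by antigen-presenting cells, Cd40 rose in CT2A, GL261 and 005. It stood at 0.408, 0.747 and 1.08 CPM in naïve brain, 2.56, 3.88 and 6.07 CPM in CT2A, 19.5, 6.79 and 11.3 CPM in GL261, 7.0, 31.6 and 9.19 CPM in 005, and 1.45, 1.89 and 3.08 CPM in Mut3. In every tumor group all 3 samples lay above naïve brain, and those of GL261 and 005 also lay above all of CT2A and Mut3. Cd40 rose 16.8-fold in GL261 (log2 fold change 4.07 ± 0.73, adjusted p = 0.0019), 21.4-fold in 005 (4.42 ± 0.73, adjusted p = 0.00212) and 5.63-fold in CT2A (2.49 ± 0.72, adjusted p = 0.0145). In Mut3 the log2 fold change was 1.54 ± 0.73, which was not called (adjusted p = 0.105). The CT2A call was lost without naïve brain replicate 1 (adjusted p = 0.06) or CT2A replicate 3 (0.057).

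Cd86 was the member with the most counts in naïve brain, and no line had a call against it in edgeR. Its levels were 11.2, 0.747 and 7.57 CPM in naïve brain, 5.86, 15.5 and 15.4 CPM in CT2A, 29.6, 21.2 and 22.1 CPM in GL261, 17.4, 43.7 and 14.5 CPM in 005, and 2.91, 4.78 and 3.69 CPM in Mut3. GL261 and 005 lay above naïve brain without overlap, with log2 fold changes of 1.89 ± 0.67 (adjusted p = 0.0534) and 1.94 ± 0.67 (adjusted p = 0.0696). DESeq2 called both (adjusted p = 0.0215 in GL261 and 0.024 in 005), as did edgeR with no filter on low counts (0.0367 and 0.0407), and GL261 was also called with library size in place of TMM (0.0412) and in a fit of GL261 and naïve brain alone (0.0324). In edgeR they also passed the threshold without some samples: GL261 without naïve brain replicate 1 (adjusted p = 0.0483) or 005 replicates 2 (0.0384) or 3 (0.0399), and 005 without its replicate 3 (0.022). The Mut3 value was −0.79 ± 0.67 (adjusted p = 0.365).

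Cd80 and Tnfsf4 stayed near the limit of the depth. Cd80 summed to 25 rounded counts in 005, 8 in CT2A, 4 in Mut3 and 1 each in GL261 and naïve brain, and the ratio of 005 to naïve brain was 9.84 with a 95% counting interval from 1.61 to 404. Tnfsf4 had 0 counts in all naïve brain samples and at most 3 counts in any tumor group, so no difference was detectable at this depth.

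**Figure D2:**
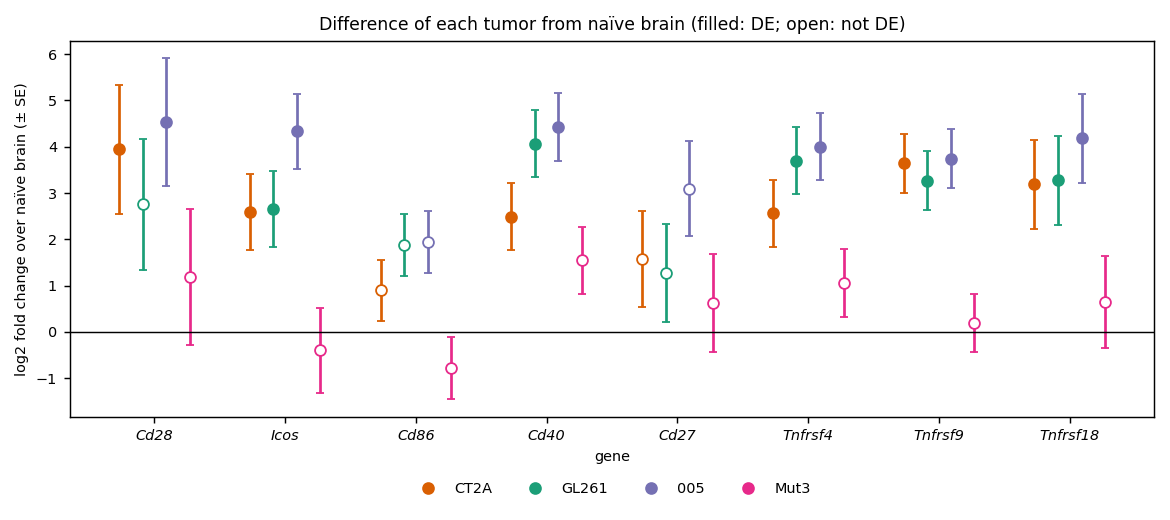
Log2 fold change over naïve brain ± SE (y axis) of the 8 tested members (x axis) in CT2A, GL261, 005 and Mut3; filled circles are differentially expressed (DE) and open circles are not. CT2A, GL261 and 005 hold the filled circles and Mut3 has none; the Cd28 values rest on 3 counts in naïve brain.

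Counted over the 8 tested members, 6 were called higher in CT2A (Cd28, Icos, Cd40, Tnfrsf4, Tnfrsf9 and Tnfrsf18), where 19.0% of all 17481 tested genes were. In GL261 5 were called higher (the same genes without Cd28), against 14.6% of all genes, and in 005 6 were, against 11.6%. No member was called lower in any line. In Mut3 0 of the 8 members were called, and 17.9% of all tested genes were called higher there. With only 8 members, a count of 0 lies near that share. In Mut3 0 members had an unadjusted p under 0.05 in edgeR, a share that was not counted over all genes. DESeq2 and limma also called 0 members there, where they called 7249 of 21135 and 4762 of 17481 genes in either direction. Over the members the median log2 fold change came to 2.57 (CT2A), 3.01 (GL261), 4.09 (005) and 0.64 (Mut3), and over all tested genes to −0.04, −0.08, 0.01 and 0.11. The CT2A count dropped to 2 without naïve brain replicate 1 or without CT2A replicate 3, and the GL261 count to 3 without GL261 replicate 1. Across the 5 groups 7 of the 8 members differed, all but Cd27 (adjusted p = 0.0605), where 52.1% of all tested genes did.

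The binding partners of the members were mostly at the limit of detection. Only Ctla4, the inhibitory receptor that competes with CD28 for CD80 and CD86, and Tnfsf9, the 4-1BB ligand, passed the filter among 6 partners. Tnfsf9 was at 1.22, 0 and 1.08 CPM in naïve brain, 4.15, 16.9 and 23.3 CPM in CT2A, 8.50, 6.47 and 7.76 CPM in GL261, 9.06, 11.0 and 0.570 CPM in 005, and 3.13, 2.01 and 3.96 CPM in Mut3. It was higher than naïve brain in CT2A (log2 fold change 4.21 ± 1.02, adjusted p = 0.00613) and GL261 (3.25 ± 1.01, adjusted p = 0.0334), without overlap, whereas 005 (3.10 ± 1.01, adjusted p = 0.0568) and Mut3 (1.94 ± 1.01, adjusted p = 0.138) were not called. Its exons overlap the opposite-strand gene Gm11110, so the same limit on strand applies. Ctla4 was not called in CT2A (log2 fold change 0.92, adjusted p = 0.453), GL261 (0.95, 0.474), 005 (2.00, 0.163) or Mut3 (−1.58, 0.237). Cd70, the CD27 ligand, was listed at 0 in 14 of the 15 samples, and Icosl, Cd40lg and Tnfsf18, the ligands of ICOS, CD40 and GITR, did not exceed 0.152, 0.197 and 0.0449 TPM in any sample.

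Between the tumor lines, the member calls of edgeR all lay between Mut3 and another line. GL261 had 6 members higher than Mut3 (Icos, Cd86, Cd40, Tnfrsf4, Tnfrsf9 and Tnfrsf18), where 17.2% of all tested genes differed in either direction, and 005 had the same 6 genes higher, where 19.8% did. CT2A had 2 members higher than Mut3, Icos (log2 fold change 2.98 ± 0.76, adjusted p = 0.018) and Tnfrsf9 (3.45 ± 0.61, adjusted p = 0.00212), against 12.8% of all genes. Tnfrsf9 separated Mut3 from every other line, with log2 fold changes of 3.08 ± 0.60 for GL261 (adjusted p = 0.00438) and 3.55 ± 0.61 for 005 (0.00219), and these 3 calls held without any single sample. Among the partners, Ctla4 was higher in 005 than in Mut3 (3.58 ± 1.00, adjusted p = 0.0218), and no other pair was called for it or for Tnfsf9. Over the 6 pairs there were 14 member calls, which fell to 6 without Mut3 replicate 1 and to 9 without Mut3 replicate 2. Ptprc moved in the same pairs, with log2 fold changes over Mut3 of 2.04 (CT2A, adjusted p = 0.0666), 2.89 (GL261, 0.0148) and 3.96 (005, 0.00353), and its part in the member calls was not tested.

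No member was called between CT2A and GL261 (7.77% of all tested genes), CT2A and 005 (4.11%) or GL261 and 005 (2.62%) in edgeR. At an unadjusted p under 0.05 there were 1, 3 and 1 members, a share that was not counted over all genes. DESeq2 called 0, 1 and 0 members, where it called 2134 of 19304, 1774 of 17478 and 939 of 18696 genes in either direction. The 1 member lay near that share. With limma 0 members were called in each, where 765, 477 and 378 of 17481 genes were. The member that DESeq2 called was Cd40, lower in CT2A than in 005, for which edgeR gave a log2 difference of −1.93 ± 0.60 with a 95% interval from −3.21 to −0.64 (adjusted p = 0.0804). Against GL261, Cd40 in CT2A differed by −1.58 (−2.86 to −0.29, adjusted p = 0.126), without overlap of the samples. Tnfrsf9 in CT2A differed from GL261 by 0.37 (−0.79 to 1.53) and from 005 by −0.10 (−1.25 to 1.05), intervals that still allow a difference of 2-fold. 

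**Figure D3:**
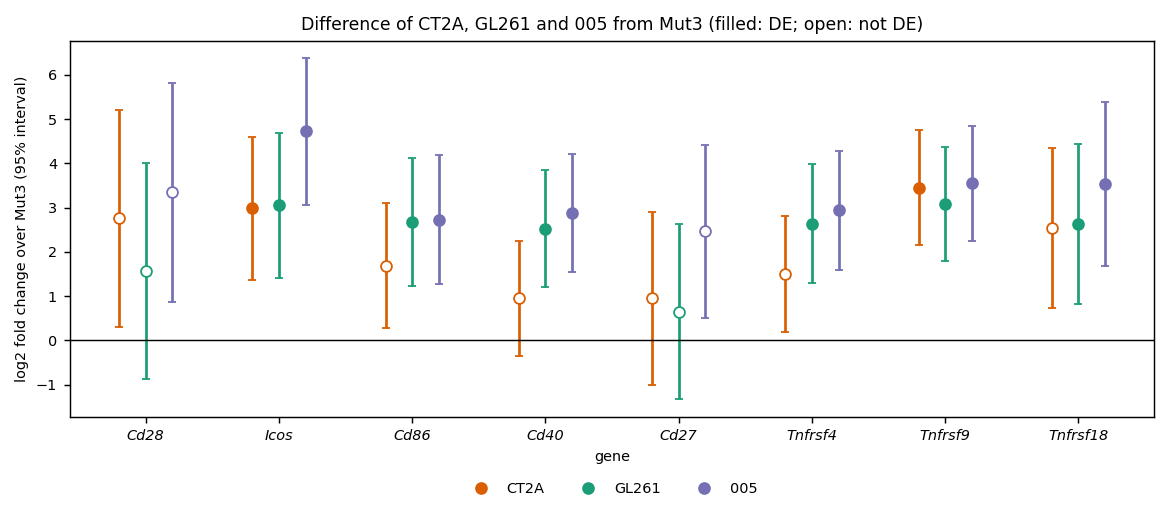
Log2 fold change over Mut3 with its 95% interval (y axis) of the 8 tested members (x axis) in CT2A, GL261 and 005; filled circles are DE and open circles are not. GL261 and 005 have 6 filled circles each and CT2A has 2, Icos and Tnfrsf9.

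Between the classes, 6 of the 8 members were higher in the active tumors, GL261 and 005, than in the inert ones, where 12.6% of all tested genes were called higher. The spread in this test is that between mice within a line. The test therefore compares these particular lines and cannot show a difference between classes in general. The study also drew the classes from immune pathways and genes in these RNA data. Higher immune genes in GL261 and 005 are thus no independent support for the classes. Both limits hold for the other class comparisons below. The log2 fold changes were 2.40 ± 0.50 for Icos (adjusted p = 0.00607), 2.23 ± 0.43 for Cd40 (adjusted p = 0.00428) and 2.04 ± 0.43 for Tnfrsf4 (adjusted p = 0.00635). They were 1.86 ± 0.46 for Cd86 (adjusted p = 0.0138), 1.81 ± 0.57 for Tnfrsf18 (adjusted p = 0.0372) and 1.59 ± 0.40 for Tnfrsf9 (adjusted p = 0.0139). Only Cd40 separated the 6 samples of one class from the 6 of the other. The remaining 2 tested members, Cd28 (1.08 ± 0.77, adjusted p = 0.331) and Cd27 (1.08 ± 0.64, adjusted p = 0.24), were not called. As the pairs above show, edgeR called these 6 members between GL261 or 005 and Mut3 and none of them between GL261 or 005 and CT2A, where DESeq2 called Cd40 in 005. The call of Tnfrsf18 was lost without any of 8 samples (CT2A replicates 1 and 2, the 3 of GL261, 005 replicate 2, Mut3 replicates 1 and 2), with adjusted p from 0.0615 to 0.0837.

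Other cell type markers moved with this contrast, in which 12.6% of all tested genes were called higher. All 9 tested T cell markers were higher in GL261 and 005, among them Cd5 (5.33), Cd6 (3.24) and Cd3g (3.02 on the log2 scale), as were 5 of 7 macrophage and monocyte markers, 2 of 7 dendritic cell markers (Itgax, 2.94, and Ccr7, 2.89) and 2 of 3 tested B cell markers. Neuron markers were also higher (6 of 6, such as Snap25, 2.66), as were 4 of 6 microglia markers, 3 of 4 astrocyte markers and 2 of 5 oligodendrocyte markers, whereas 0 of 4 endothelial and 0 of 3 tested NK cell markers were called in edgeR. Of 3 tested regulatory T cell markers, 1 was higher in GL261 and 005. Summed TPM of the 4 listed regulatory T cell markers was 0.648 to 1.25 in naïve brain, 0.235 to 0.644 in GL261 and 0.341 to 1.14 in 005. It was 0.127 to 0.466 in CT2A and 0.129 to 0.378 in Mut3. Foxp3, which defines regulatory T cells, had 0 counts in CT2A and reached 8.12 counts at most in 005, and Ncr1 of NK cells did not pass the filter. The part of these cells in the member differences was not tested.

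To set the members against the leukocyte transcript of the same sample, log2 ratios to Ptprc were computed with 0.1 TPM added to both values, and for the receptors of T cells also to Cd3e. Of the 16 ratios, 4 differed between the classes in a two-sided exact permutation test (6 against 6 samples, adjusted p = 0.0346 for each), and all 4 were lower in GL261 and 005. These were Cd28 (by −1.81), Icos (−1.29), Cd80 (−2.06) and Tnfsf4 (−2.27 on the log2 scale) to Ptprc. The permutation moved single mice between the classes without regard to their line. Its p-values thus reflect the spread among mice and do not establish a difference between classes. In the tumors these 4 genes ran from 0 to 0.632 TPM, near the added 0.1, so that where a member is close to 0 the ratio follows Ptprc alone. The count was 0 after leaving out any of 9 of the 12 tumor samples and 4, 6 and 3 without CT2A replicates 2 and 3 and 005 replicate 3, and 6 with 0.5 TPM added. None of the 6 ratios to Cd3e was past the threshold in the exact permutation test with 0.1 TPM added, and the Tnfrsf4 to Cd3e ratio was higher in GL261 and 005 by 0.88 there (adjusted p = 0.0693). That ratio went the other way from the 4 above when it was called, higher by 1.17 with 0.5 TPM added (adjusted p = 0.0139, exact permutation test) and by 1.02 without CT2A replicate 3 (0.0346). Without CT2A replicate 3 the Cd28 to Cd3e ratio was also called, and it was lower in GL261 and 005 (−0.96, adjusted p = 0.0231, exact permutation test). However, Cd3e did not exceed 0.0972 TPM in CT2A and 0.0204 TPM in Mut3, below the added 0.1 or 0.5. In those lines a ratio to Cd3e mostly follows the member itself, so neither the Tnfrsf4 nor the Cd28 difference can be read as one per T cell transcript.

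For the 5 more abundant members the ratio to Ptprc did not pass the exact permutation test between the classes. In that test the differences were −0.45 for Cd86 (adjusted p = 0.56), −0.31 for Cd40 (0.663), −0.20 for Tnfrsf4 (0.675), −0.82 for Tnfrsf9 (0.208) and −0.20 for Tnfrsf18 (0.719), and the smallest p that 6 against 6 samples can give is 0.00216. The same limit on mice and lines applies to these p-values. By line, the Tnfrsf9 to Ptprc ratio was highest in CT2A, at 1.56 (geometric mean), against 0.678 in GL261 and 0.524 in 005, and all CT2A samples (log2 ratio from 0.39 to 1.14) lay above all of GL261 (−0.75 to −0.43) and 005 (−1.45 to −0.66). This contrast of lines was picked after the values were seen, and 3 against 3 samples cannot give a p under 0.1, so it has no test. Mut3 and naïve brain spanned wider ranges (−1.35 to 1.09 and −1.28 to 1.95).

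**Figure D4:**
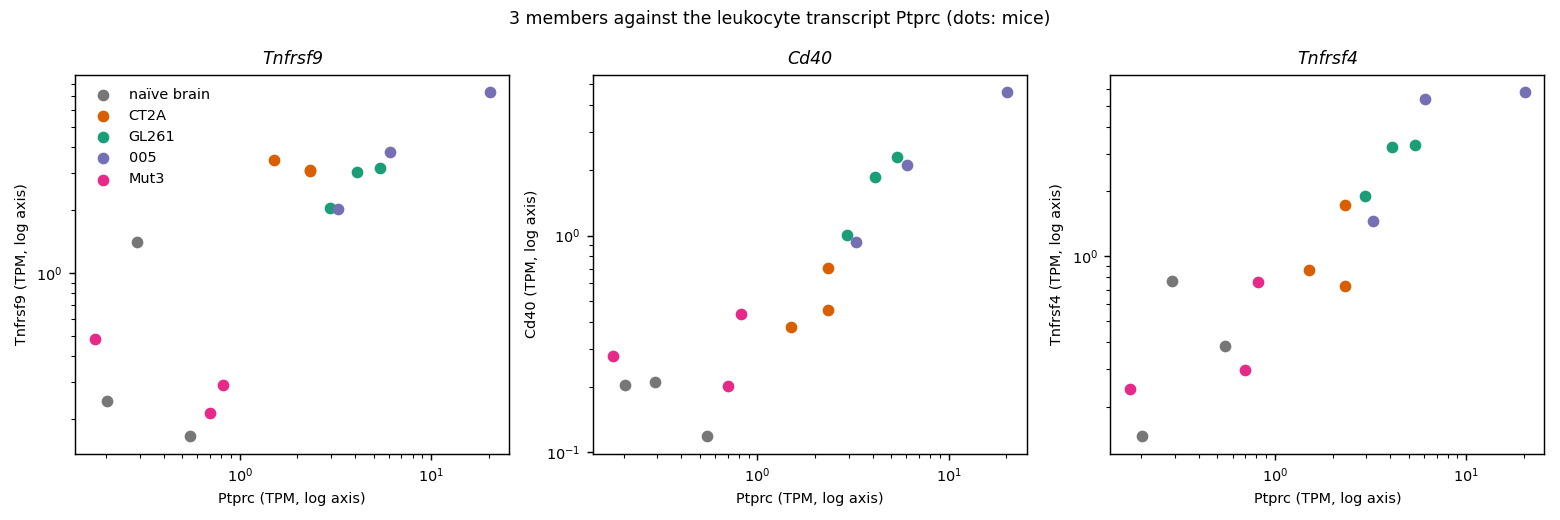
TPM of Tnfrsf9, Cd40 and Tnfrsf4 (y axes, log scale) against TPM of Ptprc (x axes, log scale), with 1 dot for each mouse of the 5 groups. Cd40 and Tnfrsf4 rise with Ptprc over the tumors, and in the Tnfrsf9 panel the 3 CT2A samples (2 of which coincide) lie at the level of GL261 at a lower Ptprc.

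Genes that act after these receptors were called in part. Of 20 tested adaptors and transcription factors of the signaling list, 6 were higher and 1 lower in CT2A, 8 higher in GL261, 9 higher and 1 lower in 005, and 4 higher in Mut3, each against naïve brain. Of all tested genes, 19.0%, 14.6%, 11.6% and 17.9% were called higher in these lines, so that the 4 of 20 in Mut3 lay near that share. The largest differences in CT2A were those of Nfkb2 (3.49 ± 0.88), Nfkb1 (2.66 ± 0.40), both subunits of NF-κB, and Birc3 (2.33 ± 0.55), which joins TRAF2 at TNF receptors. In GL261 they were Vav1 (3.19 ± 0.81), an exchange factor of antigen receptors, Traf1 (2.98 ± 0.72) and the T cell kinase Lck (2.94 ± 0.70), and in 005 they were Traf1 (4.13 ± 0.73), Map3k14 (3.50 ± 0.76), the kinase of the alternative NF-κB pathway, and Vav1 (3.34 ± 0.81 on the log2 scale). In Mut3 they were Prkcq (2.97 ± 0.64), Map3k14 (2.49 ± 0.77) and Bcl10 (1.38 ± 0.33). The gene that was lower in CT2A and 005 was Pik3r1, a subunit of PI3 kinase (−1.35 and −1.29). Between the classes 5 of 20 were higher in GL261 and 005, among them Lck (2.29 ± 0.46) and Traf1 (1.80 ± 0.44), where 12.6% of all tested genes were.

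Further costimulatory and coinhibitory molecules followed the same lines. Of 13 tested genes, 8 were higher in CT2A than in naïve brain (19.0% of all tested genes), 9 were in GL261 (14.6%) and 10 were in 005 (11.6%). None was lower, and 0 were called in Mut3 by edgeR, where 17.9% of all tested genes were called higher. The genes of this list with the largest fitted differences had almost no counts in naïve brain, so counts are given in place of folds. They are not scaled to depth, which was lowest in naïve brain and differed between the tumors. Tnfsf8, the CD30 ligand, and Tnfrsf14 (HVEM) had 0 counts in naïve brain, and Cd226, the receptor of PVR, had 0.480, whereas the 3 mice together had 19.0, 18.9 and 39.0 counts in CT2A, 41.3, 30.5 and 22.6 in GL261, and for Tnfsf8 and Cd226 66.7 and 136 in 005. Pdcd1lg2 (PD-L2) had 650 counts in 005 and 2.88 in naïve brain. Between the classes 8 of 13 were higher in GL261 and 005, against 12.6% of all tested genes, led by Pdcd1lg2 (3.46 ± 0.84), Slamf6 (3.16 ± 0.67) and Tnfrsf14 (2.87 ± 0.75 on the log2 scale).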

How the data were processed

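The authors used STAR 2.4.2a and the GENCODE mouse genome for alignment and Picard for duplicates, and deposited 2 tables: estimated counts, which are not normalized between samples and need not be whole, and TPM values, scaled to gene length and to a common total. The submitters' processing notes also name mm10, Salmon and DESeq2 1.18.1. The annotation release and strand setting are not given in the sources used here. Labels gave the groups and replicate numbers, and replicates were separate mice.

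Estimated counts were rounded. Tests used edgeR 4.0.16 in R 4.3.3 (filterByExpr, TMM, quasi-likelihood fit of the 15 samples with a mean per group), and SEs were taken from the fold change and its F statistic. A gene was DE (called) at a Benjamini-Hochberg adjusted p under 0.05 over all 17481 tested genes and a log2 fold change of 1 or more in size. Ratios were compared by exact permutation in scipy 1.17.1. The steps were tested on simulated data. Positions came from GENCODE M21, which matched 46201 of the 46679 identifiers. Alternatives were DESeq2 1.42.0, limma 3.58.1 on log2(TPM + 1), library size, other count filters, a fit of only the groups compared, no fold threshold, a replicate block, 0.5 in place of 0.1 TPM, and each sample left out.

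The members, lists and tests were chosen with earlier results of these data known. Named genes are the 10 members, their 6 partners, Ptprc and Cd3e, up to 3 called genes of each further list and comparison with the largest absolute log2 fold change, and for each tested member the 3 genes with the highest Pearson r over the samples (log2 CPM, prior count 2, mean of at least 0). A few items that this rule or the lists cover are not reported here. Some markers outside this rule are named for what they define.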

Additional observations from a re-analysis of the deposited data

Results flagged for a closer look

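The tumors share naïve brain as their control, so a difference between 2 tumors is also the difference of their effects over naïve brain, and for 14 of these the edgeR test of the difference itself passed the threshold. All involve Mut3. Icos was higher by 2.98 in CT2A, 3.05 in GL261 and 4.73 in 005 on the log2 scale. Tnfrsf9 was higher by 3.45, 3.08 and 3.55 in the same lines. In GL261 and 005, Cd86 was higher by 2.67 and 2.73, Cd40 by 2.53 and 2.87, Tnfrsf4 by 2.63 and 2.94, and Tnfrsf18 by 2.63 and 3.53. Without Mut3 replicate 1 the number of calls was 6. Groups of 3 mice are too small for a test of single outlying samples.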

How the results depend on the processing

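All 37 called member differences kept their direction in 773 alternatives and lost the call in 81 of them, 55 of which left out 1 of the samples and 14 of which were limma on log2(TPM + 1), where levels under 1 TPM are compressed. Of 17 differences not called, against naïve brain or between the classes, 12 of 347 alternatives gave a call. Uncalled differences between pairs of tumors are not in this count, and some of them also became calls. In DESeq2 these included Tnfrsf18 between CT2A and Mut3 and Cd27 and Cd28 between 005 and Mut3. Leaving out 1 sample gave between 2 and 6 called members in CT2A (6 with all samples), 3 and 6 in GL261 (5), 5 and 8 in 005 (6), 6 and 15 over the pairs (14) and 0 in Mut3, and between 0 and 6 ratios past the threshold (4). The count in CT2A was 1 with limma, and that in 005 was 2 of 6 tested members in a fit of naïve brain and 005 alone. That fit called 222 of 14993 tested genes in either direction, against 2217 of 17481 with all samples. The cause of this drop was not tested. Small uncalled differences between Mut3 and naïve brain changed sign. Over the samples left out, Icos ran from −0.82 to 0.10, Cd27 from −0.12 to 2.07, Tnfrsf9 from −0.23 to 1.45 and Tnfrsf18 from −0.14 to 1.66, where the main values were −0.40, 0.63, 0.19 and 0.65. Leaving out naïve brain replicate 3 changed the sign for Icos, Mut3 replicate 3 for Cd27 and Tnfrsf18, and naïve brain replicates 1 and 3 (−0.06) or Mut3 replicate 2 (−0.15) for Tnfrsf9. In limma Tnfrsf9 was −0.19 and Tnfrsf18 was −0.083. The cause was not tested.

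With the replicate number as a block, 3 calls were lost, Cd28 in CT2A (adjusted p = 0.0512 in edgeR) and 005 (0.064) and Icos in GL261 (0.0522), so that 5 members were called in 005 in place of 6. The samples share only a number: of 30 same-numbered pairs, 1 had a correlation of deviations above 0.1 (range −0.33 to 0.26), and 2 of 15 samples correlated best with their own number. Library size in place of TMM lowered the median of all genes by 0.20 in CT2A against naïve brain, and the members stayed higher. With at least 10 counts in every sample no member was left to test. In naïve brain 3 counts are 0.581 to 0.966 CPM before TMM normalization, which limits what can be said of Cd28, Icos, Cd80 and Tnfsf4.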

Other observations

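The genes whose log2 CPM followed each member most closely over the 15 samples, among 16142 genes compared, are given as a description. The samples share groups and tissue makeup, so these values carry no test. Cd40 ran with Mpeg1, a pore-forming protein of macrophages (Pearson r = 0.978), Ctsw (0.976), a protease of cytotoxic lymphocytes, and Cxcl16 (0.975). Tnfrsf4 ran with Itgax, the CD11c integrin (0.963), the cytotoxic granule gene Nkg7 (0.958) and Cd3d (0.957). Tnfrsf18 ran with the T cell receptor gene Trac (0.952), Cd8b1 (0.938) and Unc93b1 (0.936), and Tnfrsf9 with Itpripl2 (0.969) and the interferon-induced genes Ifi205 (0.966) and Gbp9 (0.965). Icos was closest to Sh2d2a, an adaptor of T cells (0.953), Cpa3 (0.941), a mast cell protease, and Pilrb1 (0.936). Cd86 was closest to Btk (0.952), Zup1 (0.945) and Klhl6 (0.922). The values were lower for Cd27, with Rab8b (0.888), Ctla4 (0.868), and Runx3 (0.866), and for Cd28, with Serac1 (0.859), Klre1 (0.809) and Atp8b4 (0.808).

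Among the members themselves, Cd40 and Tnfrsf4 (r = 0.952), Tnfrsf9 and Tnfrsf18 (0.91), Tnfrsf4 and Tnfrsf18 (0.902) and Cd40 and Tnfrsf18 (0.901) had the highest correlations, and Cd27 and Cd28 (0.448) the lowest. Against Ptprc, r was 0.948 for Tnfrsf4, 0.923 for Cd40, 0.89 for Icos, 0.844 for Tnfrsf9, 0.824 for Tnfrsf18, 0.814 for Cd86, 0.79 for Cd27 and 0.715 for Cd28.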
